A study of Mus musculus with 6 samples.

Results

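The subcortical maternal complex is a protein assembly beneath the membrane of mouse eggs and early embryos, and 6 genes that encode its components were described here among 23259 gene names in the table. They were taken by name: Ooep, Nlrp5, Tle6, Padi6, 2410004A20Rik (the older name of Khdc3 in RefSeq) and Zbed3. The study labelled new RNA in mouse embryos of 3 groups, Pabpn1l-null zygotes, wild-type (WT) 2-cell embryos and WT zygotes, with 2 samples of 50 embryos per group and 2 h in 200 μM 4-thiouridine from 26 h after hCG, the hormone that triggers ovulation. The labels give the genotype as Pabpn1l-null without saying which part of the gene is deleted, and their protocol text speaks of zygotes for all 6 samples, so the sources used here leave out when 2-cell embryos were taken. 4-thiouridine enters RNA during transcription and, after alkylation with iodoacetamide, is read as a T-to-C mismatch. Reads with such a mismatch are called T-to-C reads. No unlabelled library was analysed here, so the part of them that arises without label is unknown.

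The complex is stored in the growing oocyte, and its mRNAs are made there before transcription stops. Nlrp5 (also called Mater), Tle6 and Ooep (Floped) form its core in mice, and Khdc3 (Filia) binds to Nlrp5. Padi6 is needed for the cytoplasmic lattices of mouse eggs, fibrous structures of which complex proteins are a part. Mouse embryos from mothers without Nlrp5, Ooep, Tle6 or Padi6 stop dividing in early cleavage, and those without maternal Khdc3 have spindle and chromosome errors. Zbed3, a protein with a BED zinc finger, was described in mice as a further component that acts on the position of the spindle and the symmetry of division. PABPN1L, the protein absent from the null embryos, is a poly(A)-binding protein of eggs that takes part in maternal mRNA decay.

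Each group had 1 column of all reads and 1 of T-to-C reads. No value therefore has a replicate spread, and each ratio compares libraries and not conditions. Pabpn1l-null zygotes had 1270381 reads on named genes, WT 2-cell embryos 4020405 and WT zygotes 3001477, of which 3.86%, 4.54% and 3.03% in the same order were T-to-C reads. Low counts were rare in the null column, where 184 genes had 1 read, against 545 in 2-cell embryos and 977 in WT zygotes. Where 3 to 6 null reads were predicted from WT zygotes, for 1641 genes, 56.0% had none, against 2.01% if each read were an independent draw. In 2-cell embryos, predicted from WT zygotes, 37.8% of 1208 such genes had none, against 1.38%. In WT zygotes, predicted from 2-cell embryos, 34.2% of 1279 had none, against 2.06%. Reads were counted as 1 molecule per 7 reads in every column for all intervals, a size taken from earlier work on these data. The intervals are exact 95% intervals and cover counting error only. A gene passed when its ratio was at least 2-fold and its interval excluded 1. Levels are in RPM, total reads scaled to a common library size with TMM factors, and are not per length, so they are compared within a gene only. Pabpn1l itself had 4 reads in null zygotes, 14 in 2-cell embryos and 47 in WT zygotes, a null-to-WT ratio of 0.192 (95% interval 0.00716 to 2.51). All 10 egg markers were present in every column. The 17 markers of cumulus and granulosa cells summed to 27 reads in null zygotes, 140 in 2-cell embryos and 162 in WT zygotes, with 15, 9 and 9 of them at 0, and the 8 sperm markers summed to 5, 4 and 11 reads. The 7 markers of the 2-cell stage in the table summed to 20 reads in null zygotes, 14576 in 2-cell embryos and 57 in WT zygotes.

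The genes lie on 5 chromosomes of GRCm38. Ooep is on chromosome 9 at 78376903 to 78378588 and Khdc3 on the same chromosome at 73101381 to 73106631. Nlrp5 is on chromosome 7 at 23385889 to 23441923, Tle6 on chromosome 10 at 81590904 to 81601185, Padi6 on chromosome 4 at 140727355 to 140742643 and Zbed3 on chromosome 13 at 95323605 to 95337842. Tle6 shares 1678 bases with its relative Tle2 at 1 end, and Tle2 had 0 reads in null zygotes, 0 in 2-cell embryos and 10 in WT zygotes. Gm32024 also overlaps Tle6. The gene of the small nucleolar RNA Snora47 lies inside Zbed3, and LOC115485922 also overlaps Zbed3. The sources used here do not say whether counting used strand, so reads of these overlaps cannot be assigned.

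The promoters of 4 of these genes are shown because their T-to-C reads or their loss stood out below. Each is the 250 bases before the outermost start that the RefSeq promoter table lists on GRCm38.p6, 5′ to 3′, with the E-box in capitals, the CANNTG site class bound by helix-loop-helix factors such as FIGLA, a driver of oocyte genes.
Ooep, chr9:78378589-78378838, - strand: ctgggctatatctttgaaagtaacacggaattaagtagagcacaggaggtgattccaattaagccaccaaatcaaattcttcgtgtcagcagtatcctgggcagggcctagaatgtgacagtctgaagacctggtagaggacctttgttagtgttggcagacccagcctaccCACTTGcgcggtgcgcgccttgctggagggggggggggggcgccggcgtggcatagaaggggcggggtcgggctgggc
Tle6, chr10:81600901-81601150, - strand: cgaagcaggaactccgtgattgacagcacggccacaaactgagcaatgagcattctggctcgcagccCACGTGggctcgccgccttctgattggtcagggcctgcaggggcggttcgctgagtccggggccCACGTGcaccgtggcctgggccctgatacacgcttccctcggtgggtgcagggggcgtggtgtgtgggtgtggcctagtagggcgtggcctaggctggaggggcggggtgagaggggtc
Padi6, chr4:140742644-140742893, - strand: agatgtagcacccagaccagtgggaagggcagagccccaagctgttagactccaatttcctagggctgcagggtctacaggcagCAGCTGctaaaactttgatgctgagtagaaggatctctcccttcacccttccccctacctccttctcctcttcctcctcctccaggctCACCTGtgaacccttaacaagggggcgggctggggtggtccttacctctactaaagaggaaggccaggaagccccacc
Zbed3, chr13:95323355-95323604, + strand: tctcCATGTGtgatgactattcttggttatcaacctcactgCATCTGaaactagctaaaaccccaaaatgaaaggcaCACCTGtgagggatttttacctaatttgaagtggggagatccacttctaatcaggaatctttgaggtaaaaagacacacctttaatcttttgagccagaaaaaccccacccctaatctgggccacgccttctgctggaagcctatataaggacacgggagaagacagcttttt

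E-boxes were counted on both strands, and a palindromic match was counted once. All 6 outermost promoters held at least 1, as did 66.2% of 32851 RefSeq windows of the same length. Ooep had 1, beginning 78 bases before the start, Tle6 2, Padi6 2, Nlrp5 2, Zbed3 3 and Khdc3 5, of which 2 overlapped. A GC box (GGGCGG, both strands) was found in 4 of the 6, Ooep, Nlrp5, Tle6 and Padi6, and in 32.7% of all windows. Khdc3 and Zbed3 had none. The exact letters TATAAA, searched as the TATA box, and TAATCC, searched as an Obox-type site, were in none of the 6. They were in 12.4% and 6.25% of all windows in that order. Variants of these letters were not searched, such as the TATATAAG near the end of the Zbed3 window. The windows of Tle6 and Khdc3 lie inside the gene bounds given above, so the bases before the outer end of these 2 genes were not searched. These matches describe letters in the windows and not bound sites.

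In Pabpn1l-null zygotes, 2 of the 6 genes, Khdc3 and Tle6, were higher in total reads than in WT zygotes, and none passed as lower. Among all genes tested, 2.31% of 11262 passed as higher and 2.2% as lower, so that 51.2% of those that passed were higher, or 61.5% with column totals in place of TMM factors. The median log2 ratio of the 6 was 0.61, against -0.15 for all genes. In whole embryos, fewer embryos of a kind and less RNA per embryo cannot be told apart.

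Khdc3, which guards chromosome segregation and genome stability in mouse embryos, had 632 reads in null zygotes and 244 in WT zygotes. Its level was 477 scaled RPM in null zygotes (383 to 585) and 81.6 in WT zygotes (57.1 to 114), a ratio of 5.85 (3.89 to 8.84). Only 0.666% of genes had a higher log2 ratio. Tle6, a Groucho-type corepressor relative that serves in the core of the complex, had 226 reads in null zygotes and 172 in WT zygotes. The ratio of its scaled reads was 2.97 (1.66 to 5.09), with 4.34% of genes higher. Both genes passed as higher, as did 2.31% of the 11262 genes tested.

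Padi6, an arginine deiminase family member of eggs, had 1383 reads in null zygotes and 1657 in WT zygotes, or 1044 and 554 scaled RPM. Its ratio of 1.88 (1.55 to 2.29) had an interval above 1 but stayed under 2-fold. Zbed3 had 27255 reads in null zygotes and 49780 in WT zygotes, a ratio of 1.24 (1.19 to 1.29). Nlrp5, the NLR-family scaffold of the core, had 370 reads in null zygotes and 974 in WT zygotes, and its ratio of 0.858 (0.615 to 1.19) included 1. Ooep, the KH-domain protein of the core, had 789 reads in null zygotes and 2384 in WT zygotes, a ratio of 0.747 (0.599 to 0.928). Within the core, the intervals of Nlrp5 and Ooep lay below that of Tle6.

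Under edgeR's exact test, with a biological variation of 0.4 assumed in place of replicates, neither gene passed: the adjusted p was 0.114 for Khdc3 and 0.457 for Tle6. Egg markers differed between the same libraries, with 4 of 10 higher in null zygotes (Gdf9, H1foo, Zp2 and Mos, ratios of 2.05 to 4.14) and none lower. Over all genes 2.31% were higher and 2.2% lower. The part of the egg markers in the higher reads of Khdc3 and Tle6 was not tested.

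**Figure D1:**
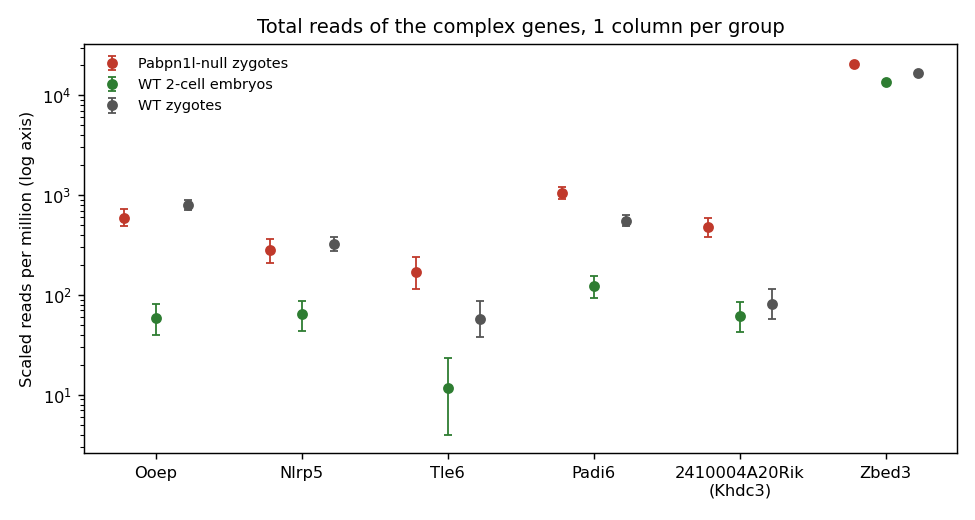
Total scaled RPM on a log axis for each of the 6 genes in Pabpn1l-null zygotes (red), WT 2-cell embryos (green) and WT zygotes (grey). Points are the single column of each group and bars are exact 95% intervals with 7 reads as 1 molecule; the 2-cell point lies lowest for every gene, and Khdc3 and Tle6 lie higher in null than in WT zygotes. Levels are not per length.

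By the 2-cell stage, 4 of the 6 genes had fallen in total reads relative to WT zygotes: Ooep, Nlrp5, Tle6 and Padi6. Among all genes tested, 17.9% of 11262 passed as lower and 18.5% as higher, and 50.8% of those that passed were higher, or 61.2% with RLE factors. The 4 falls passed under each scaling. None of the 6 passed as higher. Their median log2 ratio was -2.19, against 0.04 for all genes. Of the 10 egg markers, 5 were also lower in 2-cell embryos (Gdf9, Bmp15, Mos, H1foo and Kpna7, ratios of 0.122 to 0.392), and of 6 tested cumulus and granulosa markers 1, Cyp19a1, was lower. Their part in the falls of the complex genes was not tested.

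Ooep had 226 reads in 2-cell embryos and 2384 in WT zygotes. Its level was 58.4 scaled RPM in 2-cell embryos (39.6 to 81.7) and 797 in WT zygotes (716 to 888), a ratio of 0.0732 (0.0488 to 0.104), and 1.55% of genes had a lower log2 ratio. Nlrp5 had 248 reads in 2-cell embryos and 974 in WT zygotes, a ratio of 0.197 (0.130 to 0.283). Its partner Tle6 had 45 and 172 reads in 2-cell embryos and WT zygotes, a ratio of 0.202 (0.0622 to 0.463). Its reads without a mismatch, 34 in 2-cell embryos and 79 in WT zygotes, had a ratio of 0.332 (0.0956 to 1.10) and did not pass. Padi6 had 472 reads in 2-cell embryos and 1657 in WT zygotes, a ratio of 0.220 (0.164 to 0.287). The intervals of Nlrp5, Tle6 and Padi6 overlapped one another, while that of Ooep lay below those of Nlrp5 and Padi6 and overlapped that of Tle6.

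The other 2 genes stayed within 2-fold. Khdc3 had 240 reads in 2-cell embryos and 244 in WT zygotes, a ratio of 0.760 (0.454 to 1.24) that included 1. Zbed3 had 52240 reads in 2-cell embryos and 49780 in WT zygotes, a ratio of 0.810 (0.784 to 0.837), with an interval below 1 that included 1 with RLE factors. Zbed3 took 1.30% of all reads on named genes in 2-cell embryos, 2.15% in null zygotes and 1.66% in WT zygotes, and without it the other 5 genes summed to 318 scaled RPM in 2-cell embryos, 2567 in null zygotes and 1817 in WT zygotes. The 4 falls also passed edgeR's exact test with that variation of 0.4, at an adjusted p of 0.000723 for Ooep, 0.0335 for Nlrp5, 0.0432 for Tle6 and 0.0475 for Padi6.

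Both comparisons use the same WT zygote column. Within a gene, the order of levels was null above WT zygotes above 2-cell embryos for Tle6, Padi6 and Zbed3, with no overlap of neighbouring intervals. The share of all genes with such an order was not computed, so whether the order is unusual is unknown. It requires no 2-fold ratio. Tle6 passed in both comparisons, and Padi6 at the 2-cell stage only, since its null ratio was 1.88. Zbed3 passed in neither, with ratios of 1.24 (null) and 0.810 (2-cell). For Khdc3 the null level lay above the others, and WT zygotes and 2-cell embryos overlapped. For Nlrp5 the 2-cell level was lowest, and null and WT zygotes overlapped. For Ooep the level in null zygotes, 596 scaled RPM (492 to 718), touched that of WT zygotes, and both lay above 2-cell embryos.

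**Figure D2:**
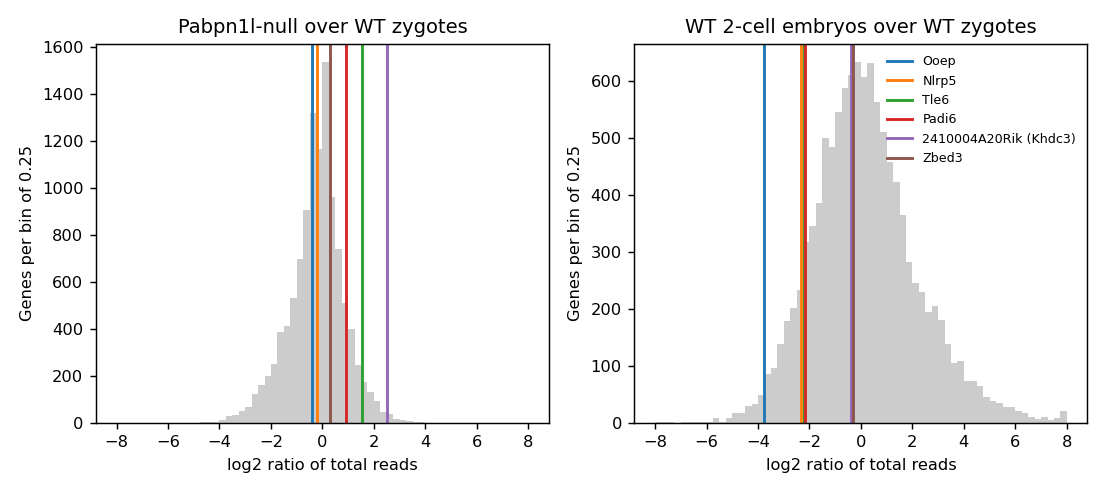
Histograms of the log2 ratio of total reads for 11262 genes, null over WT zygotes at left and 2-cell embryos over WT zygotes at right, with a coloured line for each complex gene and values past 8 in the last bin. Khdc3 stands at 2.52 in the right tail of the null comparison and Ooep at -3.75 in the left tail of the 2-cell comparison.

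In T-to-C reads, Zbed3 alone of the 6 genes passed as higher at the 2-cell stage. Zbed3 had 5356 T-to-C reads in 2-cell embryos and 667 in WT zygotes, a ratio of 6.20 (5.02 to 7.78). Tle6 and Padi6 passed as lower, with 11 T-to-C reads in 2-cell embryos and 93 in WT zygotes for Tle6 (0.0913, 0.0130 to 0.525), and 67 in 2-cell embryos and 193 in WT zygotes for Padi6 (0.268, 0.120 to 0.585). Of 4376 genes tested, 8% passed as higher and 2.95% as lower, or 73.1% of those that passed as higher. That balance depended on scaling, since it was 45.9% with the T-to-C totals of each column as the scale. Zbed3, Tle6 and Padi6 passed in the same directions under each scaling tried, but on the T-to-C totals their ratios were 4.0 (3.24 to 5.02), 0.0589 and 0.173 in that order, and the ratio of Zbed3 was 7.44 with RLE factors. In edgeR's exact test with the variation of 0.4, the adjusted p was 0.0225 for Zbed3, 0.00799 for Tle6 and 0.105 for Padi6, so Padi6 did not pass.

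Reads of Zbed3 without a mismatch numbered 46884 in 2-cell embryos and 49113 in WT zygotes, a ratio of 0.737 (0.713 to 0.762). Its T-to-C reads were thus higher in 2-cell embryos, and the ratio of its other reads was below 1 but within 2-fold. Its T-to-C share was 10.3% in 2-cell embryos (9.57 to 11) and 1.34% in WT zygotes (1.08 to 1.63), an odds ratio of 8.43 (6.79 to 10.6). Of genes with at least 100 reads, 11.2% had a share as high in 2-cell embryos and 72.3% in WT zygotes. Zbed3 held 2.93% of all T-to-C reads on named genes in 2-cell embryos and 0.733% in WT zygotes. Snora47, which lies inside Zbed3, had 87 reads in 2-cell embryos, 34 of them T-to-C reads, and 20 in WT zygotes with 0. The whole-column share was also higher in 2-cell embryos, 4.54% against 3.03% in WT zygotes, while the median share over genes with at least 100 reads was 2.06% in 2-cell embryos and 2.12% in WT zygotes.

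Ooep passed in share as well, from few reads. It had 24 T-to-C reads in 2-cell embryos and 23 in WT zygotes, a T-to-C ratio of 0.806 (0.103 to 5.77), while its other reads numbered 202 in 2-cell embryos and 2361 in WT zygotes (0.0661, 0.0438 to 0.0972). Its share was 10.6% in 2-cell embryos (1.98 to 25) and 0.965% in WT zygotes (0.182 to 2.55), an odds ratio of 11.4 (1.47 to 89.4). At 7 reads per molecule these are 3 molecules in each column. Of 4720 genes tested for the share, 5.13% passed as higher in 2-cell embryos and 0.212% as lower. Zbed3 and Ooep were the 2 complex genes that passed as higher, and none passed as lower.

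Tle6 and Padi6 had T-to-C shares above the whole-column share in all 3 columns. For Tle6 in 2-cell embryos, with 11 T-to-C reads of 45, the interval included the whole-column share of 4.54%. For Tle6 the share was 15.9% in null zygotes (5.28 to 32.8), 24.4% in 2-cell embryos (4.33 to 77.7) and 54.1% in WT zygotes (31.3 to 72.2). In WT zygotes only 9 of 4368 genes with at least 100 reads had a share as high, Tle6 itself counted. For Padi6 the share was 9.40% in null zygotes (5.88 to 14.6), 14.2% in 2-cell embryos (7.40 to 25.7) and 11.6% in WT zygotes (8.0 to 16.6), and its intervals overlapped in all 3. Genes with a share at least as high as Padi6 made up 7.01%, 7.53% and 2.70% of those with at least 100 reads in the same order. The odds ratio of Padi6 in 2-cell embryos against WT zygotes was 1.29 (0.526 to 2.92), an interval that includes 1.

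Between null and WT zygotes the T-to-C reads of none of the 6 genes passed, where 0.663% of 4376 genes were higher and 0.0686% lower. Of those that passed 90.6% were higher, or 66.7% with the T-to-C totals as the scale. Zbed3 had 474 T-to-C reads in null zygotes and 667 in WT zygotes, a ratio of 1.6 (1.17 to 2.23), under 2-fold. Padi6 had 130 in null zygotes and 193 in WT zygotes (1.52, 0.808 to 2.84), and Tle6 had 36 and 93 in the same order (0.874, 0.242 to 2.60). In share, Tle6 passed as lower in null zygotes with an odds ratio of 0.163 (0.0360 to 0.628), where 0.078% of 3845 genes were lower and 0.676% higher. Reads of Tle6 without a mismatch were higher in null zygotes, 190 against 79 in WT zygotes (5.43, 2.66 to 12.4). None of the 6 passed as higher in share.

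Ooep, Nlrp5 and Khdc3 had too few T-to-C reads in zygotes to compare at 7 reads per molecule. Null zygotes had 13, 12 and 7 of them for Ooep, Nlrp5 and Khdc3, against 23, 9 and 3 in WT zygotes. Shares ran from 1.11% to 3.24% in null zygotes and from 0.924% to 1.23% in WT zygotes, and 2-cell embryos had 2.82% for Nlrp5 and 2.92% for Khdc3, from 7 T-to-C reads each. Differences in T-to-C reads of these genes were not detectable at this depth with 7 reads per molecule, at the 2-cell stage as well. With 1 read per molecule Nlrp5 (3.01, 1.16 to 8.09) and Khdc3 (5.27, 1.20 to 31.6) passed as higher in null zygotes. Ooep (1.28, 0.594 to 2.63) did not.

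**Figure D3:**
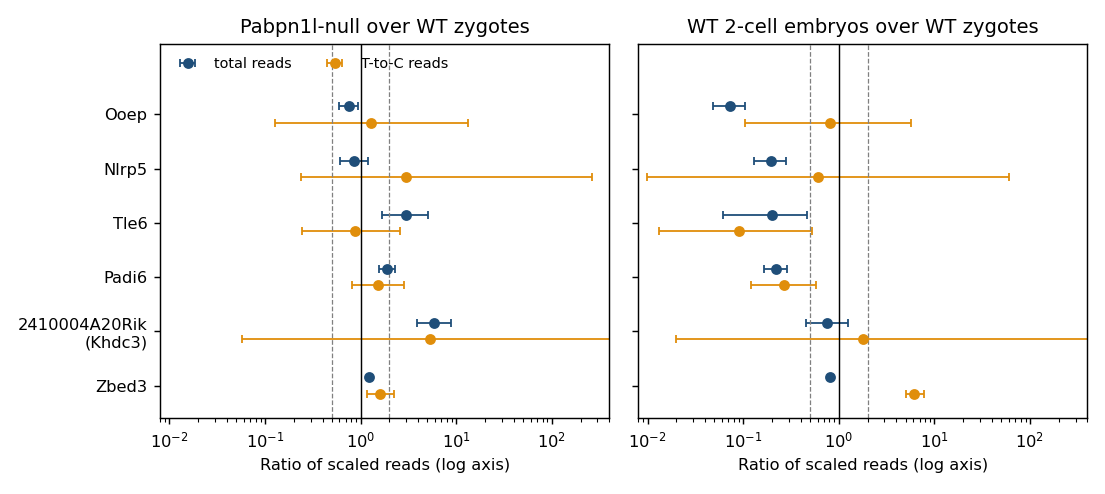
Ratios of scaled reads on a log axis for total reads (blue) and T-to-C reads (orange), null over WT zygotes at left and 2-cell embryos over WT zygotes at right, with exact 95% intervals at 7 reads per molecule, a solid line at 1 and dashed lines at 2-fold. At the 2-cell stage the T-to-C ratio of Zbed3, 6.20, lies to the right of 2-fold while its total ratio of 0.810 lies left of 1; bars that reach the right frame have no upper end or one beyond it.

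**Figure D4:**
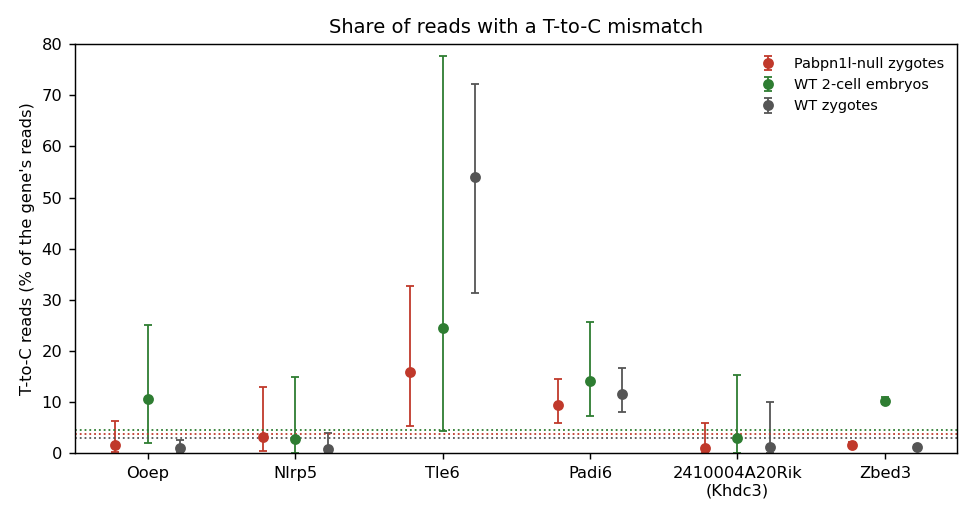
Share of each gene's reads with a T-to-C mismatch in % for Pabpn1l-null zygotes (red), WT 2-cell embryos (green) and WT zygotes (grey), with exact 95% intervals at 7 reads per molecule and dotted lines at each whole-column share. The points of Tle6 and Padi6 lie above the dotted lines in all 3 columns, and those of Zbed3 and Ooep in 2-cell embryos alone. In 2-cell embryos the intervals of Tle6 and Ooep include the dotted line.

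Of 8 partners of the complex and of the lattices, 3 were lower in total reads in 2-cell embryos, where 17.9% of all genes were lower: Nlrp4f (0.170, 0.134 to 0.214), Uhrf1 (0.195, 0.151 to 0.249) and Nlrp14 (0.370, 0.273 to 0.497), and none was higher, with a median log2 ratio of -0.90. Ube2d3 (1.13) and the actin nucleator Spire1 (0.830) stayed within 2-fold. The same 3 were lower in T-to-C reads, of 7 tested, where 2.95% of all genes were lower. In null against WT zygotes Nlrp2, an NLR relative of Nlrp5, was higher (5.16, 1.59 to 18.2) on 80 reads in null zygotes and 35 in WT zygotes. Nlrp4f was lower there (0.461, 0.362 to 0.589), where 2.31% of all genes were higher and 2.2% lower.

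Relatives of the 6 genes are given beside the shares over all genes, 18.5% higher and 17.9% lower in 2-cell embryos. Of the 4 KH-domain relatives Khdc1c was lower in 2-cell embryos (0.351, 0.230 to 0.520), while Khdc1b (0.937), Khdc1a (0.956) and Dppa5a (1.78) did not pass. Padi2, with 101 reads in 2-cell embryos and 16 in WT zygotes, was the 1 of 2 tested Padi relatives that was higher, and Padi1, Padi3 and Padi4 had at most 32 reads in any column. Among Tle relatives Tle3 was higher, with 70 reads in 2-cell embryos and 0 in WT zygotes, while Tle4 (1.98), Aes (1.22) and Tle1 (4.49) did not pass. Zbed6 was higher (13.0, 2.06 to 549), and Zbed4 (1.42) did not pass. None of these relatives passed in null against WT zygotes.

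Genes of the processes assigned to the complex passed in both directions at the 2-cell stage, as genes did overall (18.5% higher and 17.9% lower). Of 12 actin and symmetry genes 4 were higher, Ssh1 (2.71), Limk1 (2.59), Actb (2.47) and Rock1 (2.36), and 2 lower, Cfl2 (0.370) and Pfn1 (0.115), while Cfl1 (0.503), Cdc42 (0.568) and Rhoa (1.18) did not pass. Of 7 tested genome stability genes 2 were higher, H2afx (4.16) and Trim25 (640 reads in 2-cell embryos and 5 in WT zygotes), and 3 lower, among them Chek1 (0.312) and Rpa1 (0.331). Rpa1 was also the 1 of them that passed in null against WT zygotes, where it was higher (2.08, 1.44 to 2.94), as were 2.31% of all genes. No actin gene passed there.

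Of 5 tested oocyte transcription factor genes, Nobox (0.120, 0.0536 to 0.229) and Lhx8 (0.330) were lower and Taf4b (2.37) was higher in 2-cell embryos, and Sohlh2 (0.535) did not pass. Of 11 other maternal-effect genes 5 were lower, Zar1l (0.0927), Zar1 (0.0953), Zfp57 (0.138), Npm2 (0.176) and Dicer1 (0.382), and 3 higher, Ctcf (2.42), Hsf1 (2.35) and Trim28 (2.27). Btg4 (0.870) and Dppa3 (1.04) did not pass. Zar1 was the 1 of the 11 that was higher in null zygotes (2.27, 1.64 to 3.10), a ratio between those of Padi6 and Tle6. Over all genes 2.31% were higher in null zygotes.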

How the data were processed

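Per the labels' protocols, rRNA-depleted total RNA of 4-thiouridine-labelled mouse embryos was alkylated and sequenced. The submitters' processing notes name the build mm10, and the sources used here name no aligner, counter, annotation, mismatch rule or merging of samples. The table deposited by the authors gives counts of reads and of T-to-C reads, 1 column pair per group for 6 samples.

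Of 30493 rows, 47 with a date for a name were left out, and of rows sharing a name the deepest was used. Columns were scaled by TMM factors from edgeR 4.0.16 in R 4.3.3 (1.04, 0.963 and 0.996 for null zygotes, 2-cell embryos and WT zygotes), also for T-to-C reads. Genes needed at least 20 reads, or 10 T-to-C reads, over the columns, and 20 reads in both columns for the share. Ratios have exact conditional binomial intervals, and shares exact Clopper-Pearson intervals and Fisher odds ratios (SciPy 1.17.1), with 7 reads as 1 molecule, a size taken from earlier work on these data. Log2 ratios had 0.5 molecule added. No p was computed without an assumed variation, since the table has no replicates, and the intervals were not adjusted for the number of genes. The code was tested on simulated data. Alternatives were 1 read per molecule, 7 in the null column alone, RLE factors, column totals, T-to-C totals, no filter, summed rows, no addition, and edgeR's exact test at a variation of 0.4 (Benjamini-Hochberg adjusted p under 0.05).

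The members, lists and rules were chosen with earlier results of these data known. Named genes are the 6, each list's 4 members with most reads and all that passed, except 1 gene that is not reported here. Promoter sequences and coordinates are RefSeq's on GRCm38.p6.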

Additional observations from a re-analysis of the deposited data

How the results depend on the processing

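No paired analysis was possible because the table has 1 column pair per group, and leaving out single samples could not be run for the same reason. Of 84 counts of complex genes under the alternatives, 78 kept the value given above and 6 moved. With 1 read per molecule, 2 genes (Nlrp5 and Khdc3) passed as higher in T-to-C reads when null zygotes were set against WT zygotes, 1 (Nlrp5) as higher in share there, and 1 (Tle6) as lower in share in 2-cell embryos against WT zygotes. The last also held with 7 reads per molecule in the null column alone, at 1 gene. With the edgeR exact test 0 genes passed as higher in total reads in null zygotes, with 1 of the 6 at an unadjusted p under 0.05 (0.00416 for Khdc3, against 0.0707 for Tle6), and 1 as lower in T-to-C reads in 2-cell embryos. Of the other values, for single genes and for counts over all genes, 286 stayed (a single gene on its side of the rule, a count within 1.5 times). Beyond these, 34 counts moved further, 5 single-gene results newly passed and 3 no longer did, and none was reversed. A gene can appear among these results more than once. Counts over all genes rested far more on the molecule size: with 1 read per molecule 1202 genes were higher and 1745 lower in null zygotes, against 260 and 248 with 7, and 3469 higher and 3203 lower in 2-cell embryos, against 2082 and 2018. In T-to-C reads 819 and 368 were higher and lower in null zygotes, against 29 and 3, and 1404 and 925 in 2-cell embryos, against 350 and 129. In share 875 and 296 passed in null zygotes, against 26 and 3, and 955 and 446 in 2-cell embryos, against 242 and 10. With 7 reads per molecule in the null column alone, null zygotes had 534 higher and 320 lower by all reads, 176 and 5 by T-to-C reads and 117 and 5 by share. With edgeR's exact test 25 and 112 passed in total reads in null zygotes and 1736 and 1229 in 2-cell embryos, while by T-to-C reads null zygotes had 1 and 0 and 2-cell embryos 666 and 272. With T-to-C totals as the scale 18 and 9 passed in null zygotes and 207 and 244 in 2-cell embryos. RLE factors moved the median log2 ratio of total reads in 2-cell embryos to 0.28, against 0.04, and the directions of the 6 genes did not change. Depth limits the T-to-C reads of Ooep, Nlrp5 and Khdc3, which are at most 3 molecules in any column.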

Other observations

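Genes near the median of the 6 complex genes were sought among 1776 genes with at least 1000 reads. The Euclidean distance was taken in 4 measures over the 3 columns, the log2 ratios of total reads and of T-to-C shares in both comparisons. The 5 nearest named genes were D6Ertd527e (distance 0.389), Thumpd1 (0.406), Eif4h (0.549), the CCAAT-binding factor gene Nfya (0.583) and Tmem97 (0.628). Nfya had 1435 reads in null zygotes, 479 in 2-cell embryos and 1864 in WT zygotes, of which 63, 49 and 108 were T-to-C reads. These 5 genes lay nearer to the median than any complex gene placed, so they are like the median and not like each member. Of the complex genes Padi6 lay nearest to their median, at 0.996, with 1.52% of genes nearer. Next came Nlrp5 (1.91), Zbed3 (2.60), Khdc3 (2.76) and Ooep (3.02), which had 49.9% of genes nearer. Tle6 had fewer than 1000 reads and was not placed.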
